A study of Hakea laurina with 6 samples.

Results

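The contigs described here come from roots of *Hakea laurina*, a Proteaceae shrub from southwest Australia. For 55 of them the annotation names a proton pump, a cation exchanger or channel, a metal transporter, a metal-binding protein or a further kind. The further kinds are nicotianamine synthase, a chloride conductance regulator, and transporters or channels of sulfate, borate, magnesium, chloride or cationic amino acids. Another 6 came in only because the letters of a search word lie inside another word. All the contigs were chosen from the annotated part of the authors' table of contigs that differ between root types, by 17 words in the description of the closest Arabidopsis gene and by a CPM (normalized read count relative to library size) of 1 or more in all 3 libraries of at least 1 root type. The table itself was selected by the authors on the contrast of the root types in these same 6 libraries. Every difference between the root types given for these contigs is therefore a description. Whether a contig was past the threshold of the test across all contigs is given as part of that description, and supports nothing about it. In all, 61 contigs met the rule, of 4604 annotated contigs with the CPM minimum and 183999 contigs in the count table, and they matched 51 Arabidopsis genes.

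The samples were mature cluster roots (MCR), in which the rootlets of a cluster are fully grown, and tips of lateral roots that bear clusters (TCR), with 3 libraries of each. Both root types came from plants about 3 yr old, grown in hydroponic solution with no P apart from 6.4 μM P given at intervals of months, so that no root grown at high P stands beside them. Poly(A) RNA was sequenced, the reads were assembled de novo, and a contig carries the name of an Arabidopsis gene only as its closest match. The sources do not say whether the 3 libraries of a root type came from separate plants, so the spread between them may be technical. The SD is that spread. The SE of a log2 fold change comes from the fit, which shares its estimate of variation partly across contigs. The root types are those of the sample titles. The tissue label of each of the 6 libraries names the other root type, so that all directions would turn round if the titles were in error.

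Plasma membrane H+-ATPases are P-type pumps that use ATP to move protons out of the cell. The resulting gradient of charge and pH drives nutrient uptake by proton-coupled carriers, and proton release goes with the release of carboxylates for which cluster roots are known. Vacuolar proton pumps, cation/H+ exchangers, metal ATPases and metal chelators such as nicotianamine then set where cations and metals are held. Sulfate enters root cells through proton-coupled SULTR carriers and is activated by ATP sulfurylase before it is reduced.

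The libraries held 13583740 to 19119494 estimated counts, and 49813 contigs were tested. A contig was past the threshold with a Benjamini-Hochberg adjusted p below 0.05 in the quasi-likelihood test of edgeR and a log2 fold change (MCR over TCR) of at least 1 in size. The median log2 fold change of all contigs tested was 0.57, and subtracting it left all 61 contigs on their side. HalALMT1, the malate transporter contig that the study examined in mature cluster roots, had 25.7, 28.1 and 29.0 CPM in MCR, against 4.87, 4.72 and 11.8 CPM in TCR. Root tip markers were PLETHORA, cyclin, minichromosome maintenance, histone and expansin contigs in the annotated table. Of the 44 at the CPM minimum, 41 were higher in TCR, where 3429 of all 4604 annotated contigs with that minimum were. Their summed CPM was 249.5 to 523 in MCR and 1095 to 2108 in TCR. Mature cluster root markers were HalALMT1 itself, purple acid phosphatases and phosphate transporters. Of 32 such contigs, 29 were higher in MCR, and their summed CPM was 17383 to 27344 in MCR and 2582 to 2916 in TCR. Both marker sets come from the table selected on this contrast. The study picked genes of the mature set as higher in MCR in these libraries, so the direction of that set was largely fixed in advance. The 4 green tissue markers summed to 12.8 to 83.8 CPM in MCR and 39.6 to 50.5 CPM in TCR. The root tip markers were thus higher in the libraries titled TCR, and HalALMT1 and the mature cluster root markers in those titled MCR. In these bulk samples fewer cells of a type and less RNA per cell cannot be told apart, and the part of the cell types in the differences was not tested.

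MCR3 stood apart from the other MCR libraries. Over all contigs tested its Spearman correlation with MCR1 and MCR2 was 0.63 and 0.52, below those with TCR1, TCR2 and TCR3 at 0.73, 0.73 and 0.87. Over the 61 contigs, which were selected for a difference between root types, it was 0.86 and 0.86 with MCR1 and MCR2, and 0.21, 0.24 and 0.41 with TCR1, TCR2 and TCR3. MCR3 was the highest MCR library in 25 of the 61 contigs and the lowest in 25.

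MCR had the higher level in 29 of the 61 contigs and TCR in the other 32. Past the threshold were 16 higher in MCR, where 2.4% of all contigs tested were, and 19 higher in TCR, where 5.98% were. With the replicate number of the titles as a block, all 29 and all 32 were past it, where 20.1% and 15.4% of all contigs tested were. The 3 MCR libraries all lay above the 3 TCR libraries in 23 of the 29 contigs, where 10.7% of all contigs tested did. They all lay below them in 32 of the 32 contigs higher in TCR, where 20.3% of all contigs tested did. Since the contigs were selected on this contrast, nothing is read from these counts. The same shares stand beside the counts by group below, from which nothing is read either. The median log2 fold change was 2.52 in the contigs higher in MCR and −2.57 in those higher in TCR. The second median was −2.57 as well with TRINITY_DN6261_c0_g1, which had no count in MCR, set to its bound. Among all 4604 annotated contigs with the CPM minimum, 25.5% were higher in MCR, and the medians were 2.52 and −2.71. The CPM minimum bears on these splits. Of the word matches that missed it, 38 were higher in MCR, all with MCR3 under 1 CPM, and 2 in TCR. The splits therefore describe contigs that passed the minimum, not the root types as a whole.

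A CPM of at least 1 was reached in all 6 libraries by 47 of the 61 contigs, 25 of those higher in MCR and 22 of those higher in TCR. Of the other 14, 13 passed the minimum only through the root type in which they were higher. TRINITY_DN4848_c0_g1, whose mean was higher in MCR, passed it only through TCR, since MCR3 was under 1 CPM. The contigs nearest to the minimum, by the lowest deposited CPM in whichever root type had the greater one, were TRINITY_DN10629_c0_g1, TRINITY_DN3813_c0_g1 and TRINITY_DN4848_c0_g1 at 1.63, 1.68 and 1.90 CPM. Just outside it, by the same measure, were TRINITY_DN1442_c0_g2, TRINITY_DN22698_c0_g1 and TRINITY_DN37362_c0_g1 at 0.906, 0.456 and 0.213 CPM. The middle one of these matches the H+-ATPase gene AHA7. For 8 Arabidopsis genes there was more than 1 contig, in each case with the same direction. Such contigs may be copies, alleles or pieces of 1 transcript, and reads from near-identical copies could be split between them.

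**Figure D1:**
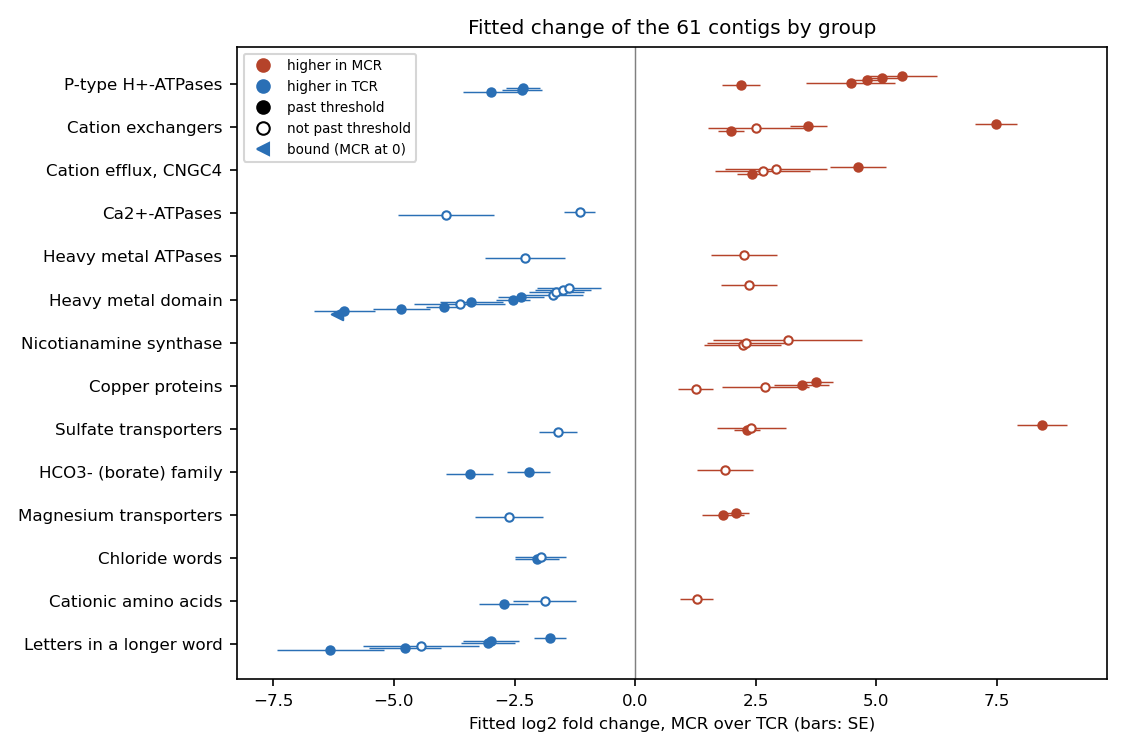
Fitted log2 fold change (MCR over TCR, x axis) of the 61 contigs by group, with standard errors as bars, filled where past the threshold. Cation exchangers, copper proteins and nicotianamine synthase lie to the right of 0 in every contig, and 12 of 13 heavy metal domain contigs lie to the left; the triangle is the log2 bound of −6.17 for TRINITY_DN6261_c0_g1, which had no count in MCR.

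Among the P-type H+-ATPases at the CPM minimum, the root types differed in the isoforms matched. MCR had the higher level in 5 of 8 contigs and TCR in 3, and each of the 8 was past the threshold. The 5 contigs matched AHA6, AHA3 and AHA8, and the 3 contigs matched AHA4, AHA10 and AHA11. TRINITY_DN1320_c0_g1 matched AHA6, a pump of pollen in Arabidopsis, which lies at chr2:3170394-3173952 in the TAIR10 build. It had 2174, 1545 and 2904 CPM in MCR, against 380.5, 375 and 692 CPM in TCR. MCR3 was the highest MCR library and TCR3 the highest TCR library, and the root types did not overlap. The means were 2208 ± 680.4 CPM in MCR and 482 ± 181 CPM in TCR (SD, n = 3 each), a log2 fold change of 2.19 ± 0.40 (SE).

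A second contig of AHA6, TRINITY_DN99900_c0_g1, differed more widely. It had 274, 207 and 319 CPM in MCR, against 9.95, 10.1 and 8.38 CPM in TCR, a log2 fold change of 4.81 ± 0.32. Its partner TRINITY_DN99900_c0_g2 held few counts, at 5.97, 5.18 and 3.22 CPM in MCR, against 0.143, 0.429 and 0.0544 CPM in TCR. In both, the lowest MCR library stood far above the highest TCR library.

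TRINITY_DN9660_c0_g1 matched AHA3 (chr5:23231208-23236381), which in Arabidopsis is found in phloem companion cells. It had 695, 568 and 1119 CPM in MCR, against 21.6, 20.4 and 26.7 CPM in TCR. MCR3 was again the highest library, and the log2 fold change was 5.12 ± 0.39. TRINITY_DN3288_c0_g1 matched AHA8 (chr3:14724309-14728062), a further pollen pump of Arabidopsis, and had 113, 84.8 and 96.1 CPM in MCR, against 3.94, 1.96 and 0.49 CPM in TCR. Its 3 MCR libraries lay close together and its TCR libraries were spread, with TCR3 the lowest, and the log2 fold change was 5.53 ± 0.74.

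The 3 pumps higher in TCR matched other isoforms than the 5 contigs higher in MCR. Below the CPM minimum, however, TRINITY_DN16609_c0_g1 matched AHA4 too and had 4.95, 5.49 and 0 CPM in MCR, against 0.286, 0.429 and 0 CPM in TCR. Among the 3, TRINITY_DN2021_c0_g1 matched AHA4, a pump of the root endodermis in Arabidopsis, and had 30.1, 29.6 and 11.6 CPM in MCR, against 132, 127 and 104 CPM in TCR, a log2 fold change of −2.35 ± 0.42. TRINITY_DN3036_c0_g1 matched AHA10, which in Arabidopsis acts in the seed coat, and had 55.4, 26.9 and 42.7 CPM in MCR, against 235, 227 and 164 CPM in TCR, a log2 fold change of −2.32 ± 0.35. TRINITY_DN1540_c0_g1 matched AHA11 and had 5.84, 3.56 and 1.28 CPM in MCR, against 29.5, 27.3 and 28.3 CPM in TCR, a log2 fold change of −3.00 ± 0.57. MCR3 was the lowest MCR library in TRINITY_DN2021_c0_g1 and AHA11 and lay between the others in AHA10, and the root types overlapped in none of the 3.

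The 8 contigs together summed to 3354, 2469 and 4496 CPM in MCR, against 812, 789.8 and 1023 CPM in TCR, which gave means of 3440 ± 1016 and 875 ± 129 CPM (SD, n = 3 each) and a ratio of 3.93. The sum holds only contigs of the selected table and leaves out H+-ATPase contigs that did not differ. It is therefore no total for a root type, and the same limit holds for the sums of other groups given here. The 5 contigs were grouped as higher in MCR, so a larger share in MCR was fixed in advance. They took 97.3%, 97.6% and 98.8% of this sum in MCR, against 51.2%, 51.6% and 71.1% in TCR. These are shares of normalized reads, not corrected for contig length, which the files used here do not give.

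**Figure D2:**
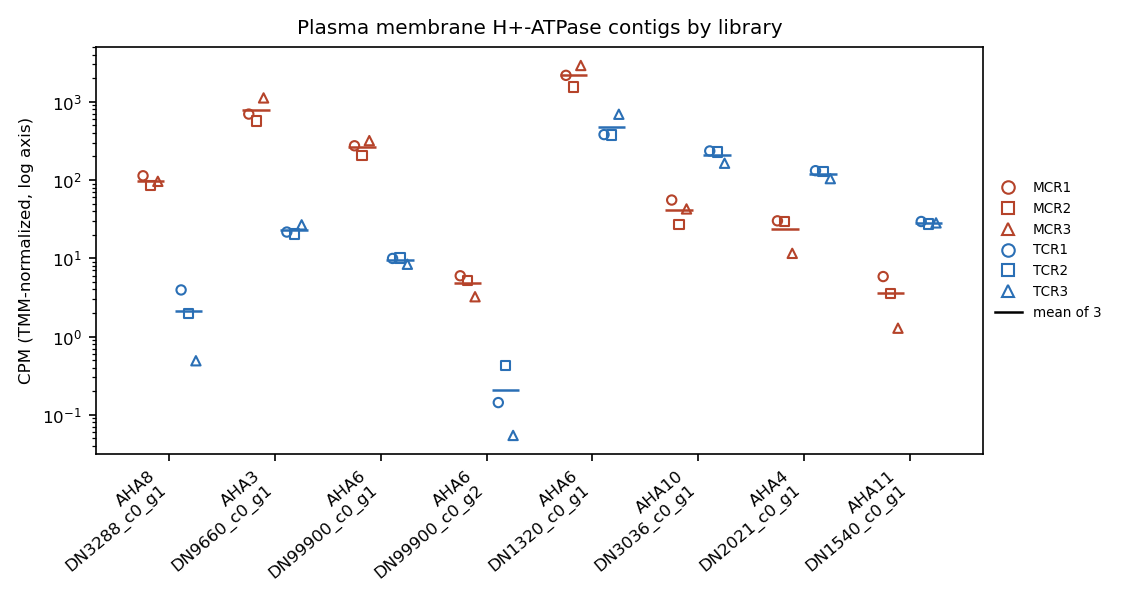
CPM (log axis) of the 8 P-type H+-ATPase contigs in each library, MCR left of TCR, with the mean of 3 libraries as a line. The contigs of AHA8, AHA3 and AHA6 lie higher in all 3 MCR libraries and those of AHA10, AHA4 and AHA11 higher in all 3 TCR libraries.

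No contig of a vacuolar H+-ATPase was among the 61. The words for it matched 6 contigs below the CPM minimum, all 6 higher in MCR, with summed CPM of 7.06 in MCR1, 30.5 in MCR2 and 0 in MCR3, against 0.143, 1.10 and 0 in TCR1, TCR2 and TCR3. Proton pumping was also followed outside the 61 contigs, in a list of 16 annotated contigs found by symbol or by other words, of which 3 met the CPM minimum. TRINITY_DN21307_c0_g1 matched VHA-E3, a stalk subunit of the vacuolar H+-ATPase, and had 145, 106 and 211 CPM in MCR, against 53, 56 and 58.6 CPM in TCR, a log2 fold change of 1.46 ± 0.32. The other 2 matched AVP1, the vacuolar H+-pyrophosphatase, and were higher in TCR. A further contig of AVP1, TRINITY_DN286171_c0_g1, missed the minimum and had 0.0679, 3.87 and 0 CPM in MCR, against 0, 0.0613 and 0 CPM in TCR. Of the AVP1 contigs at the minimum, TRINITY_DN16742_c0_g1 had 3.73, 1.81 and 4.38 CPM in MCR, against 22.4, 23.8 and 32 CPM in TCR, and TRINITY_DN2177_c1_g2 had 5.56, 3.74 and 5.35 CPM in MCR, against 26.6, 31.8 and 37.1 CPM in TCR, with log2 fold changes of −2.98 ± 0.45 and −2.70 ± 0.34. The 3 contigs at the minimum were past the threshold and come from the same selected table.

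All 4 cation exchangers were higher in MCR, and 3 were past the threshold, where 2.4% of all contigs tested were in that direction. Their summed CPM was 1562 ± 345 in MCR and 124 ± 10.6 in TCR (SD, n = 3 each), a ratio of 12.6. TRINITY_DN3617_c0_g1 matched CHX18 (chr5:16638554-16641146), of a family of cation/H+ exchangers that in Arabidopsis serves potassium and pH balance of inner membranes. It had 1199, 849 and 609 CPM in MCR, against 4.37, 4.47 and 5.99 CPM in TCR. Every MCR library was more than 100 times any TCR library, with a log2 fold change of 7.48 ± 0.44. TRINITY_DN70_c0_g1 matched CAX3, a calcium/H+ exchanger of the Arabidopsis vacuole, and had 294, 332 and 255 CPM in MCR, against 16, 21 and 35.7 CPM in TCR, a log2 fold change of 3.60 ± 0.39. TRINITY_DN3711_c0_g1 matched the cation calcium exchanger CCX4 and had 422, 341 and 332 CPM in MCR, against 90, 106 and 80.9 CPM in TCR, a log2 fold change of 1.99 ± 0.26. In both, the 3 MCR libraries lay close together and above TCR.

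TRINITY_DN8965_c0_g1 matched CHX20, an exchanger known from Arabidopsis guard cells, and was uneven. It had 2.04, 21.9 and 30.8 CPM in MCR, against 2.08, 1.41 and 6.04 CPM in TCR. MCR1 lay within the range of TCR while MCR2 and MCR3 lay above it, and the log2 fold change of 2.52 ± 1.00 was not past the threshold. Uneven means here that, in the root type with the higher mean, 1 library had less than 0.1 of the mean of the other 2, which held for 4 of the 61 contigs, all higher in MCR.

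The other 4 contigs with the word cation were a channel and 3 cation efflux proteins, of a family that carries metals such as zinc and manganese, and all were higher in MCR. TRINITY_DN1355_c0_g1 matched CNGC4, a cyclic nucleotide-gated channel that in Arabidopsis acts in defence signalling, and had 223, 514 and 239 CPM in MCR, against 8.45, 9.13 and 21.9 CPM in TCR. MCR2 was the highest library, and the log2 fold change was 4.63 ± 0.58. TRINITY_DN382_c1_g1, matching AT1G16310, had 274, 217 and 159 CPM in MCR, against 36.9, 42.7 and 41.6 CPM in TCR, a log2 fold change of 2.42 ± 0.30, and MCR3 was the lowest of its MCR libraries. Both were past the threshold.

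The other efflux contigs matched 1 gene, AT3G58060, and rested on MCR3. TRINITY_DN3813_c0_g2 had 14.3, 5.93 and 104 CPM in MCR, against 5.44, 6.93 and 7.51 CPM in TCR. TRINITY_DN3813_c0_g1 had 6.58, 1.93 and 41 CPM in MCR, against 1.86, 1.66 and 2.99 CPM in TCR. In each, MCR2 lay within the range of TCR and MCR3 was far above the rest. The log2 fold changes of 2.65 ± 0.99 and 2.92 ± 1.06 were not past the threshold, and without MCR3 they were 0.54 ± 0.52 and 0.90 ± 0.73.

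Both calcium pumps at the CPM minimum were higher in TCR, and neither was past the threshold. Below the minimum, 3 calcium pump contigs, matching ACA1, ACA2 and ACA11, were higher in MCR, each with 0 CPM in MCR3. TRINITY_DN13441_c0_g2 matched ECA1, a calcium and manganese pump of the endoplasmic reticulum in Arabidopsis, and had 62.8, 12 and 3.47 CPM in MCR, against 479, 405 and 306 CPM in TCR. The MCR libraries were spread widely, MCR3 being the lowest, yet all lay below TCR, and the log2 fold change was −3.93 ± 1.00. Without MCR1 it was −5.42 ± 0.67 and without MCR3 −3.48 ± 0.74, both past the threshold, and without MCR2 it was −3.32 ± 1.16, not past it. TRINITY_DN8042_c0_g1 matched the autoinhibited pump ACA1 and had 145, 98.5 and 75.4 CPM in MCR, against 244, 259 and 205 CPM in TCR, a log2 fold change of −1.15 ± 0.32.

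The 2 heavy metal ATPases were both matches of copper pumps and had opposite directions. TRINITY_DN957_c0_g1 matched HMA5 (chr1:23527655-23531109), which in Arabidopsis exports copper from root cells, and had 233, 274 and 798 CPM in MCR, against 45.5, 57.3 and 169 CPM in TCR. TRINITY_DN16314_c0_g1 matched RAN1 (HMA7), which in Arabidopsis supplies copper to ethylene receptors, and had 1.02, 1.06 and 4.92 CPM in MCR, against 6.8, 7.23 and 20.3 CPM in TCR. In both contigs the library numbered 3 was the highest of its root type, and the root types did not overlap. The log2 fold changes of 2.26 ± 0.69 and −2.29 ± 0.83 were not past the threshold, and without MCR3 that of HMA5 was 1.41 ± 0.55. That of RAN1 was −3.52 ± 0.72 without MCR3, which was past it. Without MCR1 it was −1.75 ± 0.98 and without MCR2 −1.76 ± 0.98, neither past the threshold. Below the CPM minimum, TRINITY_DN19355_c1_g1 matched RAN1 too and had 0, 8.23 and 0 CPM in MCR, against 0 CPM in each TCR library.

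Proteins with a heavy metal domain, which bind metal ions through a short motif and are counted among metal chaperones, made up the most numerous group. TCR had the higher level in 12 of 13 contigs and MCR in 1, where 3429 of all 4604 annotated contigs with the CPM minimum were higher in TCR. Of the 12, 7 were past the threshold, where 5.98% of all contigs tested were in that direction. The summed CPM of the 13 contigs was 154 ± 53.4 in MCR and 760 ± 77.9 in TCR (SD, n = 3 each), and the median log2 fold change was −2.53. Both contigs of AT1G23000 were among the widest differences. TRINITY_DN982_c0_g1 had 9.3, 5.49 and 4.19 CPM in MCR, against 225, 248 and 75.2 CPM in TCR, and TRINITY_DN982_c0_g2 had 0.679, 0.748 and 2.49 CPM in MCR, against 94.5, 101 and 64.2 CPM in TCR. TCR3 was the lowest TCR library in both, and the log2 fold changes were −4.85 ± 0.60 and −6.03 ± 0.63.

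TRINITY_DN2634_c1_g1, matching AT5G19090, had 2.04, 2.87 and 1.88 CPM in MCR, against 40.3, 37.8 and 27.8 CPM in TCR, a log2 fold change of −3.96 ± 0.37. TRINITY_DN1387_c0_g1, matching AT3G06130, had 11.9, 30.4 and 10.9 CPM in MCR, against 97, 109.9 and 67.8 CPM in TCR, a log2 fold change of −2.36 ± 0.48. TRINITY_DN2602_c0_g1, matching AT5G03380, had 49.5, 18.5 and 129.6 CPM in MCR, against 132, 136 and 243 CPM in TCR. In the first 2 the root types stood well apart, whereas in the third MCR3 came close to TCR1 and the log2 fold change of −1.37 ± 0.67 was not past the threshold. Without MCR3 the third was past it, at −2.40 ± 0.54. Without MCR1 it was −0.98 ± 0.87 and without MCR2 −0.71 ± 0.60, neither past the threshold.

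TRINITY_DN6261_c0_g1, matching AT3G48970, was named after its values were seen, since it had no count in any MCR library. It had 4.44, 2.21 and 6.8 CPM in TCR, from 223 counts. Against a floor of 3 counts over the 3 MCR libraries it was at least 72.1-fold lower in MCR. The other 6 contigs higher in TCR had log2 fold changes between −3.64 (TRINITY_DN6001_c0_g1) and −1.49 (TRINITY_DN27280_c0_g1). The contig higher in MCR, TRINITY_DN1805_c0_g1 (AT1G01490), had 12.4, 22.4 and 6.38 CPM in MCR, against 2.58, 2.02 and 3.43 CPM in TCR. Its root types did not overlap, and the log2 fold change of 2.36 ± 0.58 was not past the threshold.

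All 3 contigs of nicotianamine synthase, the enzyme that makes the metal chelator nicotianamine from S-adenosylmethionine, matched NAS3 (chr1:2984950-2985912). Their mean was higher in MCR, none was past the threshold and in all 3 the root types overlapped. TRINITY_DN3131_c0_g1 had 709.9, 464 and 85 CPM in MCR, against 42.2, 75.2 and 151 CPM in TCR. TRINITY_DN3131_c0_g2 had 39, 21.5 and 4.8 CPM in MCR, against 2.22, 3.56 and 7.4 CPM in TCR. TRINITY_DN4848_c0_g1 had 14.3, 53.6 and 0.0608 CPM in MCR, against 2.36, 3.68 and 1.52 CPM in TCR. MCR3 was the lowest MCR library in each and lay below TCR3 in each, and in TRINITY_DN4848_c0_g1 it was the lowest of all 6 libraries.

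The log2 fold changes of the NAS3 contigs were 2.23 ± 0.79, 2.30 ± 0.80 and 3.16 ± 1.54. Without MCR3 they were 2.64 ± 0.53, 2.70 ± 0.58 and 3.66 ± 0.66, each past the threshold. Without MCR1 they were 1.77 ± 0.87, 1.74 ± 0.86 and 3.68 ± 1.78, none past it. Without MCR2 they were 2.31 ± 0.98, 2.47 ± 0.99 and 1.79 ± 1.54, again none past it. The count of all contigs past it in MCR also rose without MCR3, as given further below. The summed CPM of the 3 contigs was 763, 539 and 89.9 in MCR, against 46.7, 82.4 and 159.7 in TCR.

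Of the YELLOW STRIPE-like carriers, which move metals bound to nicotianamine in Arabidopsis, YSL7 and YSL8 were in the list of other metal genes. TRINITY_DN724_c0_g1 matched YSL7 and had 447, 822 and 184 CPM in MCR, against 40.2, 62.2 and 36.6 CPM in TCR. TRINITY_DN19002_c0_g1 matched YSL8 and had 50.2, 125 and 20.7 CPM in MCR, against 0, 0 and 0.109 CPM in TCR. Both were past the threshold and higher in MCR, and MCR3 was the lowest MCR library in both. In 4 further contigs of YSL7 and YSL8, all below the CPM minimum, MCR3 was the highest MCR library. TRINITY_DN3374_c0_g1, matching the metal carrier NRAMP2, had 311, 286 and 276 CPM in MCR, against 78.5, 95.7 and 46.8 CPM in TCR, with MCR libraries close together. In all, 7 of 15 such metal contigs met the CPM minimum, 3 higher in MCR and 4 in TCR. The 4 matched NRAMP6, the copper pump HMA6 and, with a pair of contigs, the heavy metal domain protein HIPP26. All 7 were past the threshold, and they come from the same selected table.

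All 4 copper protein contigs were higher in MCR, and their root types did not overlap, as in 10.7% of all contigs tested in that direction. A pair matched 1 copper amine oxidase gene, AT4G12290, of a family that oxidizes polyamines and releases hydrogen peroxide. TRINITY_DN369_c0_g1 had 631, 863 and 549 CPM in MCR, against 38.3, 61.4 and 51.4 CPM in TCR, and TRINITY_DN369_c0_g2 had 123, 209.8 and 46.4 CPM in MCR, against 12, 13.6 and 8.82 CPM in TCR. MCR2 was the highest and MCR3 the lowest MCR library in both, and the log2 fold changes of 3.76 ± 0.34 and 3.46 ± 0.57 were past the threshold.

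The other copper contigs were not past the threshold and were highest in MCR3. TRINITY_DN121_c1_g1 matched CSD2, a copper/zinc superoxide dismutase of Arabidopsis plastids, and had 283, 221 and 518 CPM in MCR, against 139.8, 146 and 142 CPM in TCR, a log2 fold change of 1.25 ± 0.36. TRINITY_DN3116_c0_g1 matched the blue copper-binding protein BCB, was named after its values were seen, and had 20.5, 30.4 and 138 CPM in MCR, against 5.94, 4.17 and 18.9 CPM in TCR. MCR1 was close to TCR3 in BCB, and its log2 fold change was 2.70 ± 0.90, or 1.32 ± 0.65 without MCR3.

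**Figure D3:**
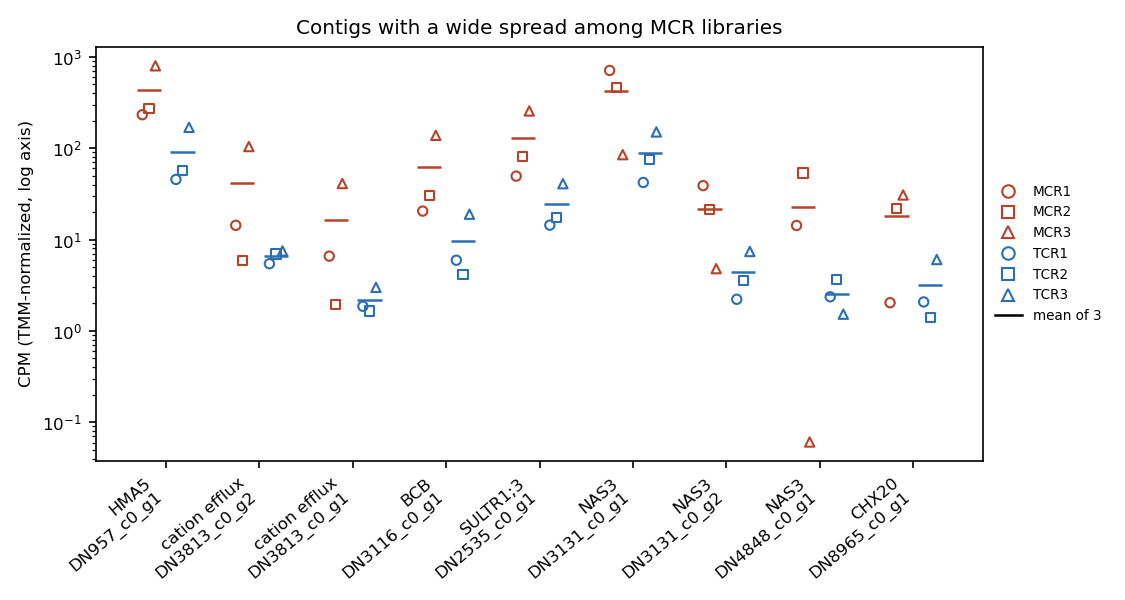
CPM (log axis) in each library of 9 contigs, chosen after their values were seen, whose MCR libraries were widely spread, MCR left of TCR, with the mean of 3 libraries as a line. MCR3 is the highest MCR library in HMA5, both cation efflux contigs, BCB, SULTR1;3 and CHX20, and the lowest in the 3 NAS3 contigs, where it lies below TCR3.

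Of 4 sulfate transporter contigs 3 were higher in MCR, and their summed CPM was 674 ± 162 in MCR and 157 ± 28.6 in TCR (SD, n = 3 each), a ratio of 4.29. TRINITY_DN402_c0_g1 matched SULTR3;4, which in Arabidopsis has been described as a carrier for phosphate distribution, and had 338, 454 and 457 CPM in MCR, against 84.2, 83.5 and 82.1 CPM in TCR. The TCR libraries were almost equal and all MCR libraries stood above them, with a log2 fold change of 2.32 ± 0.26. TRINITY_DN2244_c1_g1 matched SULTR1;3 (chr1:7818361-7821344), a phloem sulfate carrier of Arabidopsis, and had 130.1, 77 and 130.2 CPM in MCR, against 0.429, 0.368 and 0.163 CPM in TCR. It was close to absent in TCR, and its log2 fold change of 8.45 ± 0.52 was the widest of the contigs higher in MCR.

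A second contig of SULTR1;3, TRINITY_DN2535_c0_g1, had 49.5, 81.5 and 256 CPM in MCR, against 14.4, 17.3 and 40.9 CPM in TCR. Library 3 was the highest in both root types, the lowest MCR library was above TCR3, and the log2 fold change of 2.41 ± 0.71 was not past the threshold. Without MCR3 it was 1.36 ± 0.50. TRINITY_DN740_c0_g1 matched SULTR3;1, a sulfate carrier of the Arabidopsis plastid envelope, and was higher in TCR. It had 22.3, 15.8 and 10.5 CPM in MCR, against 37.1, 44.1 and 66.5 CPM in TCR, and its log2 fold change of −1.60 ± 0.39 was not past the threshold. A further pair of contigs, matching SULTR2;1, escaped the word rule because the annotation misspells sulfate. TRINITY_DN4166_c0_g1 had 27, 20.9 and 41.8 CPM in MCR, against 1.43, 1.66 and 2.34 CPM in TCR, and TRINITY_DN4166_c0_g2 had 22.5, 25.1 and 17.1 CPM in MCR, against 4.22, 5.82 and 1.8 CPM in TCR. Both were past the threshold.

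Among enzymes that build sulfate into cysteine, 5 of 7 annotated contigs met the CPM minimum. All 5 were higher in MCR and 3 were past the threshold. They come from the same selected table, which leaves out enzymes that did not differ. Sulfite reductase and O-acetylserine were among the search words too and matched no contig, so the list does not cover the whole route to cysteine. TRINITY_DN785_c0_g1 matched APS1, the ATP sulfurylase that activates sulfate, and had 2014, 1153 and 661 CPM in MCR, against 266, 263 and 234 CPM in TCR, a log2 fold change of 2.33 ± 0.44. TRINITY_DN7736_c0_g1 matched APR3, an APS reductase, and had 1433, 429 and 532 CPM in MCR, against 51.5, 58 and 122 CPM in TCR, a log2 fold change of 3.37 ± 0.61. MCR1 was the highest library in both, with root types that did not overlap.

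The 3 serine acetyltransferases, which make the carbon skeleton for cysteine, were in the same list. TRINITY_DN4369_c0_g1, matching SERAT2;2, had 137, 148 and 61.3 CPM in MCR, against 25.8, 35.6 and 16.3 CPM in TCR and was past the threshold. TRINITY_DN34035_c0_g1, matching SERAT2;1, had 1375, 750.3 and 461 CPM in MCR, against 241, 304 and 236 CPM in TCR, and TRINITY_DN4872_c0_g1, matching SERAT1;1, had 121, 145 and 327 CPM in MCR, against 38.9, 39.7 and 105 CPM in TCR, and these were not past it. MCR3 was the lowest MCR library in SERAT2;1 and SERAT2;2 and the highest in SERAT1;1.

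**Figure D4:**
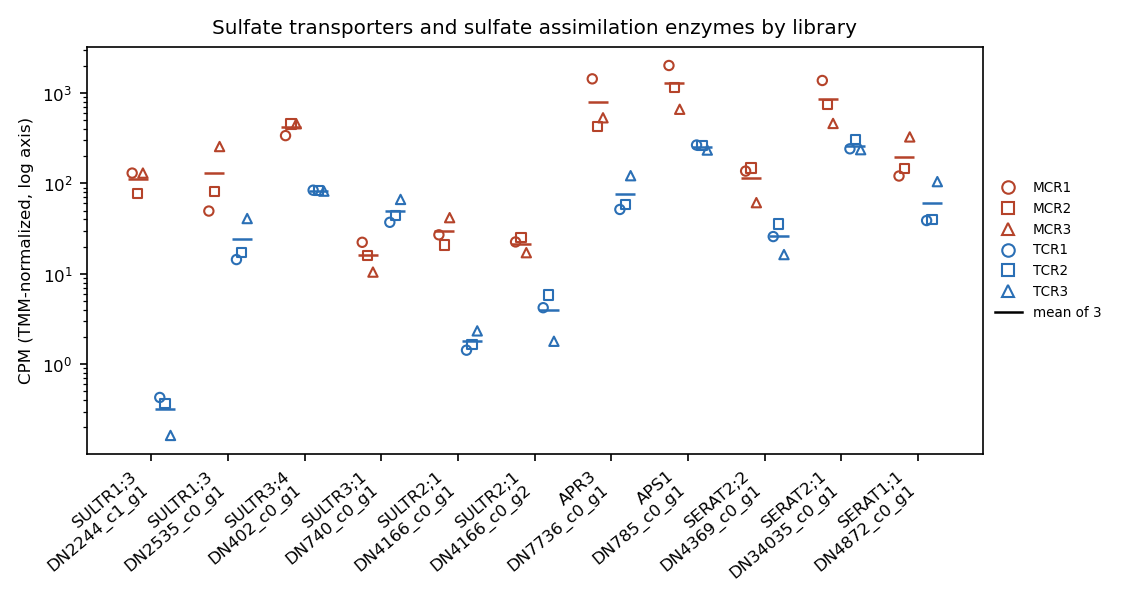
CPM (log axis) of 6 sulfate transporter contigs and 5 contigs of sulfate assimilation in each library, MCR left of TCR, with the mean of 3 libraries as a line. Of the 11 contigs, which all come from the table selected on this contrast, only SULTR3;1 lies lower in MCR.

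The HCO3- transporter family, which in Arabidopsis holds the borate exporters, was higher in TCR in 2 of 3 contigs. TRINITY_DN1243_c1_g1 matched BOR4 and had 13.1, 11.5 and 7.36 CPM in MCR, against 147, 145 and 52.2 CPM in TCR, a log2 fold change of −3.43 ± 0.49. TRINITY_DN937_c0_g1, matching AT3G62270, had 14, 24.9 and 46.3 CPM in MCR, against 137, 127 and 129 CPM in TCR, a log2 fold change of −2.21 ± 0.45. Both were past the threshold, and TCR3 was the lowest TCR library in BOR4. TRINITY_DN6501_c0_g1, matching AT3G06450, had 56.3, 22.3 and 22.9 CPM in MCR, against 9.09, 14.5 and 4.14 CPM in TCR, and its log2 fold change of 1.87 ± 0.59 was not past it. Among other boron genes, TRINITY_DN1073_c0_g1, matching the boric acid channel NIP5;1, had 60.1, 59.8 and 35.9 CPM in MCR, against 5.73, 6.13 and 10.1 CPM in TCR and was past the threshold, whereas a pair of contigs of NIP6;1 were past it in the direction of TCR.

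Of 3 magnesium transporters 2 were higher in MCR and past the threshold. TRINITY_DN3647_c0_g2 matched MGT4 and had 105, 101 and 110.0 CPM in MCR, against 20.8, 24.2 and 28.7 CPM in TCR, a log2 fold change of 2.10 ± 0.26. TRINITY_DN1763_c0_g1, a CorA-like protein matching AT2G04305, had 66.5, 25.7 and 30.3 CPM in MCR, against 12.7, 12.4 and 9.58 CPM in TCR, a log2 fold change of 1.82 ± 0.43. The MCR libraries of MGT4 lay close together, and those of the CorA-like contig were led by MCR1. TRINITY_DN10920_c0_g1 matched MGT2 and had 1.76, 0.873 and 0.426 CPM in MCR, against 7.01, 6.44 and 5.44 CPM in TCR, a log2 fold change of −2.62 ± 0.70 that was not past the threshold.

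Both contigs with the word chloride were higher in TCR. TRINITY_DN5734_c0_g1 matched an ICln family protein, named for chloride conductance, and had 14.7, 12.5 and 6.57 CPM in MCR, against 56, 56.3 and 25.6 CPM in TCR, a log2 fold change of −2.03 ± 0.46 that was past the threshold. TRINITY_DN19771_c0_g1 matched AT5G33280 of the voltage-gated chloride channels and had 4.34, 4.8 and 12.3 CPM in MCR, against 20.9, 22.4 and 40.1 CPM in TCR. Its log2 fold change of −1.95 ± 0.53 was not past the threshold. Without MCR3 it was −2.68 ± 0.45 and past it. Without MCR1 it was −1.48 ± 0.64 and without MCR2 −1.52 ± 0.66, neither past it. Library 3 was the lowest of its root type in ICln and the highest in the channel, in MCR and in TCR alike. TRINITY_DN82_c0_g1, matching the anion channel gene SLAH1 and outside the 61 contigs, had 59.7, 134 and 151 CPM in MCR, against 24.7, 25.2 and 41.6 CPM in TCR and was past the threshold.

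The cationic amino acid transporters matched CAT2, CAT5 and CAT7. TRINITY_DN757_c0_g1 matched CAT2, a carrier of the Arabidopsis vacuole, and had 344, 624 and 480.0 CPM in MCR, against 158, 178 and 260.3 CPM in TCR, a log2 fold change of 1.28 ± 0.34. TRINITY_DN3601_c0_g1 matched CAT5 and had 21.3, 3.56 and 7.78 CPM in MCR, against 29.8, 33.7 and 56.4 CPM in TCR, a log2 fold change of −1.88 ± 0.66. TRINITY_DN51400_c0_g2 matched CAT7 and had 1.09, 2.0 and 1.34 CPM in MCR, against 11, 8.15 and 10.1 CPM in TCR, a log2 fold change of −2.72 ± 0.51. Only the contig of CAT7 was past the threshold, and no root types overlapped.

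The last 6 contigs are no transporters. Their descriptions hold the letters of cation inside another word, replication or multiplication, and all 6 were higher in TCR, 5 of them past the threshold. They matched the replication proteins SLD5 and RFC3, a DNA replication helicase, a replication factor A domain protein and, with a pair of contigs, TOM1, a host factor of tobamovirus multiplication. TRINITY_DN10295_c0_g1, matching RFC3, had 3.19, 6.24 and 2.13 CPM in MCR, against 39.4, 37.1 and 15.4 CPM in TCR. TRINITY_DN9897_c0_g1, matching TOM1, had 10.3, 9.42 and 15 CPM in MCR, against 42.7, 44.6 and 31.1 CPM in TCR. TRINITY_DN17294_c0_g1, matching the helicase, had 0.339, 0.249 and 0.73 CPM in MCR, against 14.7, 16.6 and 5.28 CPM in TCR. The log2 fold changes of the 6 lay between −6.32 (TRINITY_DN8055_c0_g1) and −1.77 (TRINITY_DN9897_c0_g1). The other 55 contigs divided into 29 with the higher level in MCR, 16 of them past the threshold, and 26 in TCR, 14 of them past it.

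Libraries with the number 3 moved in part together among the 61 contigs. Library 3 was the highest of both root types in 12 contigs and the lowest of both in 16, and its deviation from the other libraries had the same sign in both root types in 36. Across the 61 contigs the deviations of MCR3 and TCR3 had a Pearson correlation of 0.27, and across 11539 contigs with a mean CPM of at least 10 it was 0.50. Contigs are not independent, since they share these libraries. With MCR3 and TCR3 both left out, a choice made after seeing the data, the threshold was passed by 23 contigs higher in MCR and by 28 in TCR. Without TCR1 the counts were 8 and 3, and without TCR2 they were 8 and 3. The counts over all contigs, given further below, rose and fell in the same fits. Nothing about these contigs is therefore read from the changes. Of the 35 contigs past the threshold, 24 were lost without TCR1, 24 without TCR2, 8 without TCR3, 10 without MCR1 and 6 without MCR2, and 0 without MCR3. Without MCR3 a further 11 came past it, and without MCR1 a further 1.

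The threshold was passed in the given fit and in all 14 alternative fits by 10 contigs. The share of all contigs tested that did so is not given here. Since the contigs were selected on this contrast and the fits share the same libraries, nothing is read from this count. The 7 higher in MCR were CHX18, CAX3, CNGC4, AHA3, SULTR1;3 (TRINITY_DN2244_c1_g1), AHA6 (TRINITY_DN99900_c0_g1) and the copper amine oxidase (TRINITY_DN369_c0_g1). The 3 higher in TCR were heavy metal domain contigs, the pair matching AT1G23000 and that matching AT5G19090.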

How the data were processed

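Reads of 3 MCR and 3 TCR libraries were trimmed (Trimmomatic 0.39), assembled de novo with Trinity and quantified with Salmon 1.9.0 by the authors, who deposited estimated counts per contig. The authors' deposited CPM, normalized with edgeR 4.0.14, served for the rule of selection alone. Its fold change, p and q columns hold the authors' own comparison and were not used. TAIR10 coordinates are those of the Arabidopsis matches in the authors' annotation.

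The estimated counts were rounded to whole numbers, and contigs with a mean CPM of at least 0.4 in a root type were tested with edgeR 4.0.16 in R 4.3.3 (TMM, quasi-likelihood test, root type only, all 6 libraries). CPM values in the text are TMM-normalized from these counts. The SE is the log2 fold change divided by the square root of F. For a single contig, 3 libraries of each root type allow no exact permutation p below 0.1.

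The contigs, the word groups and the lists of other genes and markers were chosen with earlier results of these data known. In each group up to 3 contigs per direction with the highest mean CPM were named, as well as the 5 widest differences per direction with a mean CPM of at least 10 and no overlap, and uneven contigs with such a mean, 49 in all. Genes outside the 61 contigs, and contigs given as the ends of a range, were named after their values were seen.

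Libraries with the same number deviated together from the root type means, with correlations of 0.34, 0.36 and 0.48 for pairs 1, 2 and 3 over 14706 contigs, a pairing known only from the titles. Unmatched pairs also reached 0.32 (MCR1 with TCR2) and 0.18 (MCR2 with TCR1). Pairs of a library 3 with another number had −0.29 to −0.50. Deviations within a root type sum to 0, so these values depend on each other and do not settle the pairing. Alternatives were other filters, scalings and tests (DESeq2 1.42.0, limma-voom 3.58.1), the replicate block, no fold minimum, other fractions for uneven contigs and each library left out. The fits were tested on simulated data. Tables and figures were made with pandas 2.3.3 and matplotlib 3.10.9 in Python 3.11.15. No sequences are shown.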

Additional observations from a re-analysis of the deposited data

How the results depend on the processing

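No direction changed among the 49 named contigs in 14 fits (686 values), of which 57 dropped under the threshold and 96 came past it. The counts depended on the filter, the test and single libraries. With all contigs of at least 1 read, 29 of the 61 contigs were past the threshold in MCR and 32 in TCR, and 4959 of all contigs in MCR. filterByExpr gave 2393 of all contigs in MCR. DESeq2 gave 28 of the 61 contigs in MCR, and of all contigs 4119 in MCR and 5068 in TCR. For these fits the counts are not given in full for both the 61 and all contigs. The 61 contigs are therefore not weighed against all contigs here. With the replicate block the counts were 29 in MCR and 32 in TCR, and of all contigs 10008 in MCR and 7696 in TCR, against 1196 and 2981 without it. Leaving out 1 library gave 8 to 20 in MCR and 3 to 26 in TCR. Without MCR1 the count in TCR was 12. Of all contigs it gave 208 to 3200 in MCR, lowest without TCR1, 254 without TCR2 and highest without MCR3. In TCR it gave 327 to 4260, lowest without TCR1, 397 without TCR2, 1563 without MCR1 and 1399 without MCR2. Without MCR3 and TCR3, chosen after seeing the data, 8063 in MCR and 7805 in TCR were past it. With 0.05 in place of 0.1 as the fraction, 1 contig was uneven. The median log2 fold change of all contigs was 0.57 after TMM scaling, 0.84 if RLE factors were used and 0.37 if counts were scaled to library totals. Counts of a few reads, as in the TCR libraries of SULTR1;3, limit the precision of such folds.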

Other observations

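The words of the rule also matched 40 annotated contigs that missed the CPM minimum, 38 of them higher in MCR. In all 38, MCR3 had less than 1 CPM and was the lowest MCR library or tied with it, and MCR2 was the highest in 32. Their summed CPM was 177 in MCR1, 378 in MCR2 and 0.608 in MCR3, against 9.38 in TCR1, 17.8 in TCR2 and 0.490 in TCR3. The 5 H+-ATPase and 6 vacuolar pump contigs below the minimum belong to them. Of the 40 contigs 0 were past the threshold in the quasi-likelihood test of edgeR, 18 had an unadjusted p below 0.05, and DESeq2 placed 7 past the threshold and limma-voom 0. With the replicate block, or with all contigs of at least 1 read, all 40 were past it. With the block, 20.1% of all contigs tested were past it in MCR and 15.4% in TCR. Without MCR3, 10 of the 40 were past it, and 18 without MCR3 and TCR3. With any other single library left out, 0 were. No share of all contigs is given for the unadjusted p, and nothing is read from these counts. What these contigs represent was not tested.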
